A study of Mus musculus with 2 samples.

Results

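Chromosome 4 held 251 of the 2245 6mA peaks of the series, 121 of the 1006 called in embryonic day 8.5 (E8.5) mouse brain and 130 of the 1239 called in E9.5 brain. The members were all peaks that the deposited lists place on chromosome 4, and they were divided by summit position between a 3 Mb interval of the distal chromosome, which holds a cluster of zinc finger genes and whose peaks ran from chr4:145435806 to 147817672, and the rest of the chromosome. Positions are on mm10, and gene records are those of RefSeq on GRCm38.p6, the assembly that mm10 names. The peaks were called in DNA pulled down with an antibody kit against N6-methyladenine (6mA) and sequenced (6mA MeDIP-seq). Each stage was represented by 1 library of brain tissue whose label gives no treatment. Both libraries were called against the same input, DNA set aside before the pull-down, whose stage the sources used here do not give. The series concerns neural tube defects in embryos of mice on a low-folate diet injected with the folate antagonist methotrexate, and no such sample was analysed here. The labels do not say how many embryos gave the DNA of a library, and strain and genotype are not given either. DNA carries no expression markers, so the tissue label was not checked.

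6mA is adenine with a methyl group on its exocyclic nitrogen, a common mark in bacteria whose level in mammalian DNA is low and debated, and ALKBH1, named in the title of the series, is reported to remove it. Zinc finger proteins with a KRAB domain bind DNA, much of it in transposable elements, and recruit TRIM28 and the methyltransferase SETDB1, which deposits the heterochromatin mark H3K9me3. In the mouse many of their genes lie in clusters that grew by tandem duplication, and the distal part of chromosome 4 holds such a cluster, of which Rex2 and Zfp979 (also called Ssm1b) are members.

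Several copies in this cluster resemble each other closely in the RefSeq promoter windows of GRCm38.p6, and others do not. Each window runs from 250 bases before to 50 bases after an annotated start, and a gene can have several starts. The Rex2 window shown lies inside the gene record, chr4:146973610-147060799, and not at its beginning. The windows of 4 zinc finger genes are shown. The 3 genes Zfp980, Zfp985 and Zfp600 held overlapping peak pairs described below. Rex2, which held no such pair, was added after the windows had been compared because it is a near copy of Zfp600. For a gene with several windows, the one with the most runs of 25 bases shared within the interval was taken. No window was available for Zfp978 and Zfp991, which also held pairs, and that of Zfp993 is described but not shown. The display therefore favours likeness. Capitals mark bases that belong to a run of 25 bases also present in the promoter window of another gene of the zinc finger interval. The windows lie on the plus strand at chr4:145670447-145670746 for Zfp980, chr4:147553027-147553326 for Zfp985, chr4:146156577-146156876 for Zfp600 and chr4:147021600-147021899 for Rex2.
Zfp980: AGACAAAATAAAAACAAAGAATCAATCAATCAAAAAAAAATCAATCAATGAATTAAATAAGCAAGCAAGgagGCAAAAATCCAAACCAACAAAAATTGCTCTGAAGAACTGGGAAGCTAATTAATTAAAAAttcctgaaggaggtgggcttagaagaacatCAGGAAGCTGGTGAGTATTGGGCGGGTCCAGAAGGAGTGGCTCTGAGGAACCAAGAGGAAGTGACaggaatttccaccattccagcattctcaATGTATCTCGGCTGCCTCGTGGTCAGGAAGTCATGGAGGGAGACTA
Zfp985: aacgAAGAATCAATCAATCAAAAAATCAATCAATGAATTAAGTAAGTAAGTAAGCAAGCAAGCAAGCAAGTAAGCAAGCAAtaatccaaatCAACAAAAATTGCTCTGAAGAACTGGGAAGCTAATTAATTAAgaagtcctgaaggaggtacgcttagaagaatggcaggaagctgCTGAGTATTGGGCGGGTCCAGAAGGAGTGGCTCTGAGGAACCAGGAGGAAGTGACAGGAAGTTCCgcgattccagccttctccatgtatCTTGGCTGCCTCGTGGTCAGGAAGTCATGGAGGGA
Zfp600: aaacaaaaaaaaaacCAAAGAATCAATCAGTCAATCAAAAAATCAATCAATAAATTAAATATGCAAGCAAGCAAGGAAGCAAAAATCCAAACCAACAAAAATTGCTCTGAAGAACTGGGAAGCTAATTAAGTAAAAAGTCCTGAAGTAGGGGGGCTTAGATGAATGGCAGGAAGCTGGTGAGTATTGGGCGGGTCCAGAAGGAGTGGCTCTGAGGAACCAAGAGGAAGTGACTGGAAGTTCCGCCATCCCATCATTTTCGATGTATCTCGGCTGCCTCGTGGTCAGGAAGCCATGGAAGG
Rex2: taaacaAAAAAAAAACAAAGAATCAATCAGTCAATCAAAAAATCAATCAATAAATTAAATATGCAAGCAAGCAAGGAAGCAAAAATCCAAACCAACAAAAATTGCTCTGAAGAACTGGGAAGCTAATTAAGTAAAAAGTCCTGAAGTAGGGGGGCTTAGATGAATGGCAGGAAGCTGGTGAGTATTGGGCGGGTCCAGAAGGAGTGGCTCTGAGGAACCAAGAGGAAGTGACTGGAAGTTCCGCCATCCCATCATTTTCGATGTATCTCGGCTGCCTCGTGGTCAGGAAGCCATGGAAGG

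The capitals covered 239 of 300 bases for Zfp980, 219 for Zfp985, 285 for Zfp600 and 294 for Rex2. Aligned end to end, the windows of Zfp600 and Rex2 were identical at 99.3% of columns, those of Zfp980 and Zfp600 at 88.6% and those of Zfp980 and Zfp985 at 80.6%. The window of Zfp993, a further zinc finger gene with an overlapping pair, shared no run of 25 bases with the others and was 40.7% to 41.9% identical to them. Zfp979, which also held an overlapping pair, shared 62.7% of its runs of 25 bases with other genes. Of the 16 zinc finger promoter windows of the interval that the table holds, 14 (87.5%) shared at least 1 such run with a window of another gene on any chromosome, and 328 of all 2053 promoter windows of chromosome 4 did. The share of runs that were not unique varied widely over the 16 windows, with a median of 43.5% and with 10 of them at 25% or more. Counted on the given strand alone, adenine made up a median of 36.3% of the bases of the 16 windows and 22.3% of those of all chromosome 4 windows. Adenines of the opposite strand were not counted, so these values are not the adenine content of the double-stranded DNA. Fragments from near-identical copies cannot always be assigned to a copy, and the sources used here do not give the way the aligner placed them. The sequence under the peaks themselves was not analysed here.

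Most chromosome 4 peaks lay in the zinc finger interval. At E8.5 it held 81 of 121 peaks (66.9%, exact 95% interval 57.8 to 75.2), and at E9.5 81 of 130 (62.3%, 53.4 to 70.7), although it makes up 1.96% of the 153.3 Mb between the first and last annotated or called position. This is 27 peaks per Mb at both stages, against 0.266 per Mb at E8.5 and 0.326 at E9.5 over the rest of the chromosome. The interval had been named with the peak lists in view, so the contrast in density is a description. Intervals throughout cover counting error only, and with 1 library per stage no difference between stages can be tested.

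Within the interval the peaks thickened towards its distal end. Its first Mb held 13 E8.5 and 15 E9.5 peaks, its middle Mb 21 and 24, and its last Mb 47 and 42. The last of these windows ranked 4 among all 1 Mb windows of the E8.5 library and 5 among those of the E9.5 library. The first peak began at 145435806 and the last ended at 147817672, a span of 2.382 Mb that lies inside the reach of the zinc finger gene records but for its first peaks. On either side peaks were scarce: the nearest peak before the cluster lay 24.1 Mb away at E8.5 and 11.1 Mb at E9.5. Beyond the interval the remaining 8.36 Mb held 1 peak, at E9.5.

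**Figure D1:**
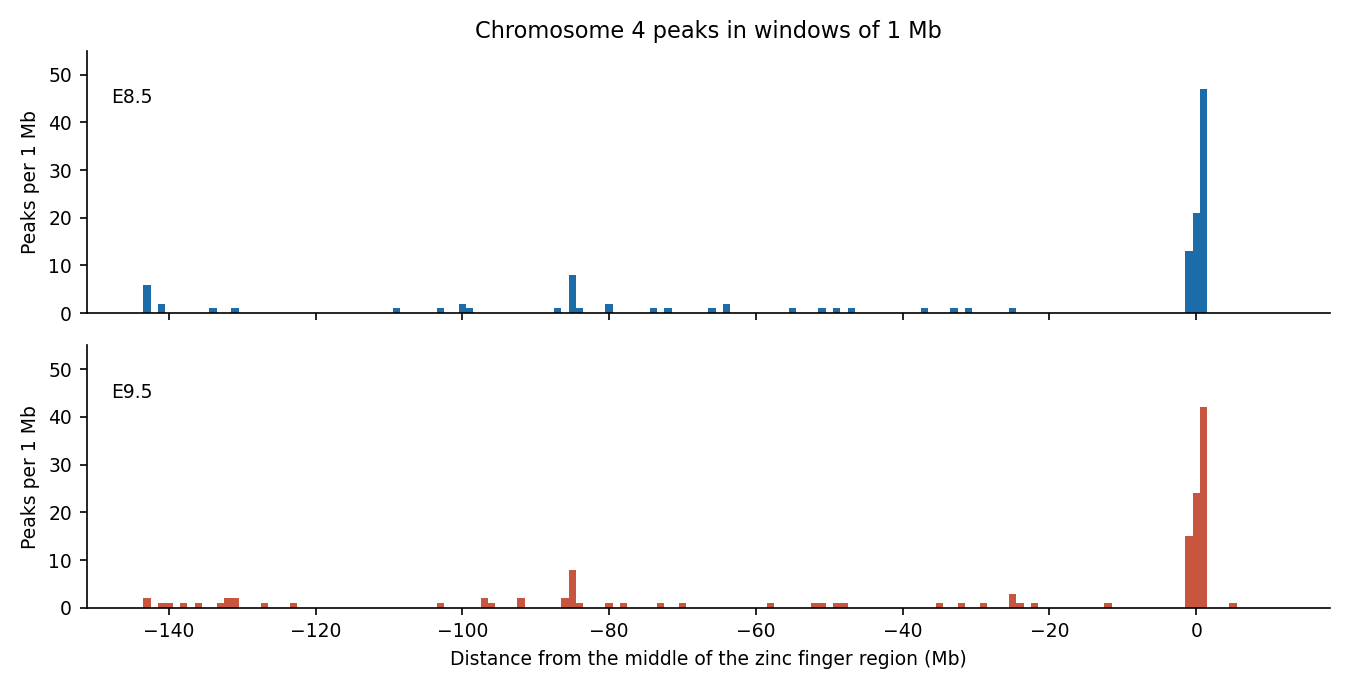
Number of peaks in windows of 1 Mb along chromosome 4 (vertical axis) against the distance of the window from the middle of the zinc finger interval (horizontal axis, Mb), for the E8.5 library above and the E9.5 library below. The 3 windows of the interval stand at 13, 21 and 47 peaks at E8.5 and at 15, 24 and 42 at E9.5, and the next highest bar, at 8 peaks in each library, is the window of the major urinary protein genes.

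Neighbouring summits were about 13 kb apart in the cluster. The median distance between neighbours was 13.1 kb at E8.5 (quartiles 5.40 to 31.8 kb) and 13.4 kb at E9.5 (5.43 to 31.1 kb), with 34 of 80 gaps (42.5%) and 31 of 80 gaps (38.8%) under 10 kb. Over the rest of the chromosome the medians were 1530 kb and 1526 kb, and 4 of 39 and 3 of 47 gaps were under 10 kb. When peaks of both stages were joined wherever they lay at most 10 kb apart, the cluster fell into 55 stretches, of which 23 were a lone peak and 2 held at least 10 peaks.

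The stretch with the most peaks, chr4:147396414-147438939 (42.5 kb, between Zfp978 and Zfp982), held 7 E8.5 and 10 E9.5 peaks, and 5 of each overlapped a peak of the other stage. Its pileups, the number of fragments stacked at a summit, were 17 to 30 with a median of 24 at E8.5, and 20 to 34 with a median of 27 at E9.5. A second stretch of 70.5 kb around Zfp992, chr4:146430676-146501168, held 9 and 7 peaks with median pileups of 15 and 17, and 1 peak of each stage overlapped. Another, chr4:147281028-147314586 at the start of Zfp988, was uneven, with 8 E8.5 peaks and 1 E9.5 peak and no overlap. The first stretch was thus high and recurrent at both stages, the second was populated at both stages at mostly different places, and the third was populated mostly in the E8.5 library.

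Long intervals inside the cluster held no peak of either stage. The 3 longest ran over 169.1 kb (chr4:146261603-146430675), 168.4 kb (chr4:146726416-146894814) and 158.9 kb (chr4:145893331-146052215). Gene records covered 1.91% of the first, all of the second, which lies inside the record of Zfp993, and 0% of the third. Peaks were thus absent both from stretches with few or no annotated genes and from a stretch that lies wholly within a gene record. Gaps in the assembly, and how well fragments can be placed in these stretches, were not analysed here.

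**Figure D2:**
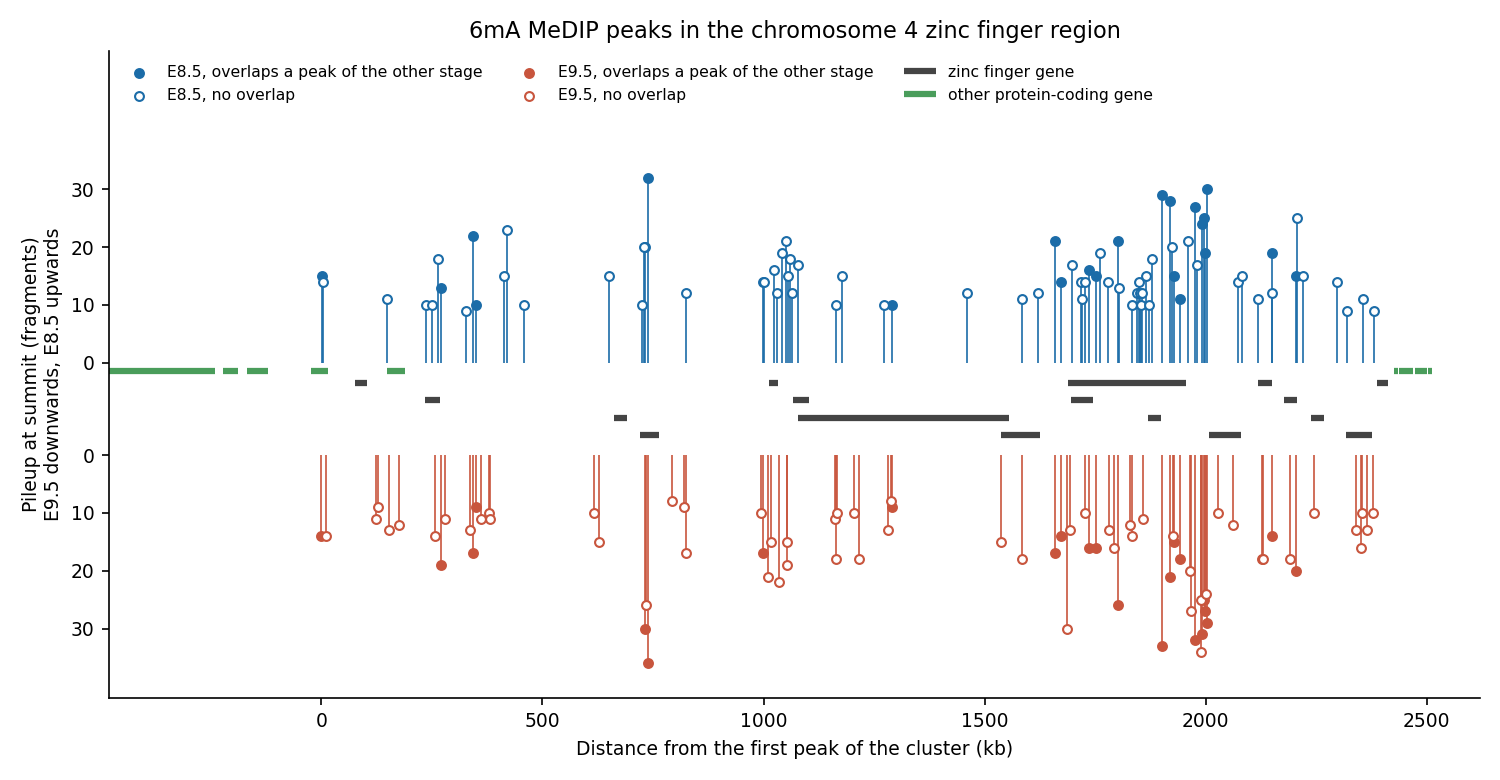
Pileup at the summit of each peak (fragments, E8.5 upwards in blue, E9.5 downwards in red) against the distance from the first peak of the cluster (kb). Filled symbols overlap a peak of the other stage, dark bars are zinc finger genes on 4 staggered rows and green bars are other protein-coding genes. The 24 filled symbols of each stage are most frequent towards the right, where the last Mb of the interval holds 16 of them.

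Peaks of the cluster were taller than those elsewhere on the chromosome, over a higher local background. The pileup inside the interval had a median of 14 fragments at E8.5 (quartiles 12 to 19, highest 32) and 15 at E9.5 (11 to 19, highest 36). Over the rest of chromosome 4 it was 10 at both stages, with the highest value at 15 and 21. Lengths were closer, with medians of 337 and 381 bp inside against 318 and 343 bp over the rest. The authors' fold, (pileup + 1) over (background + 1), had medians of 2.45 and 2.51 inside and 2.71 and 2.66 over the rest, so the order of the areas was the opposite of that for pileup. That order turned at E8.5 and vanished at E9.5 with only peaks at the lowest background of their library: the medians were then 2.96 inside and 2.71 over the rest, and 2.66 in both areas, from 8 peaks inside at each stage.

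The background at each peak, recovered from its pileup and fold, moved with the pileup. Inside the interval its medians at the 2 stages were 4.80 and 5.26 fragments, and over the rest of the chromosome it was 3.05 and 3.14, which is the lowest value in each library. Only 8 of 81 peaks (9.88%, 4.36 to 18.5) of either stage inside the interval had that lowest background, against 30 of 40 (exact interval 58.8% to 87.3%) and 42 of 49 (85.7%, 72.8 to 94.1) over the rest. In the whole libraries the shares at the lowest background were 46.3% and 48.7%. The caller takes the background from the input around the peak where that exceeds a library-wide minimum. The background was therefore higher in the cluster, and its part in the number, height and recurrence of the peaks was not tested.

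**Figure D3:**
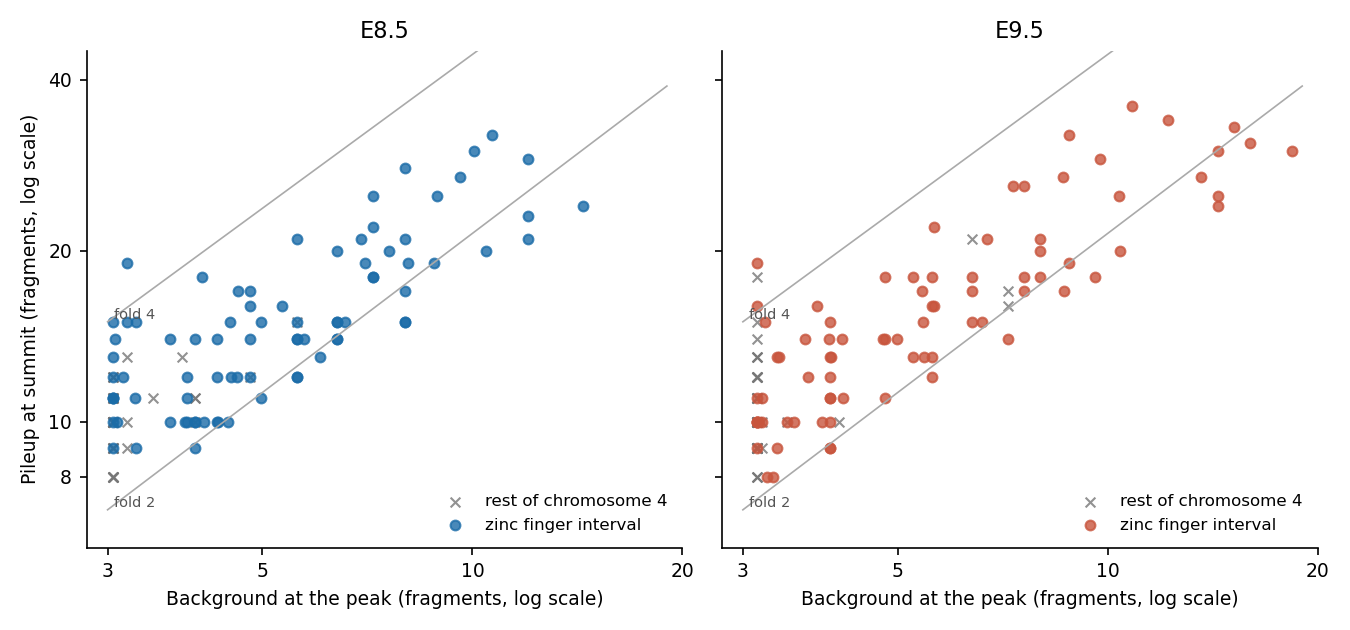
Pileup at the summit (fragments, log scale) against the background at the same peak (fragments, log scale) for every chromosome 4 peak, with the E8.5 library on the left and the E9.5 library on the right. Grey lines mark a fold of 2 and of 4. Coloured points of the zinc finger interval spread to backgrounds of 14.4 and 18.4 fragments, while most grey crosses from the rest of the chromosome stack at the lowest background, 3.05 and 3.14.

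Few members passed a correction for multiple testing. A q-value of at most 0.05, as the authors' lists give it, was reached inside the interval by 10 of 81 E8.5 peaks (12.3%, 6.08 to 21.5) and by 11 of 81 E9.5 peaks (13.6%, 6.98 to 23.0), close to the 12.8% of all peaks in each library. Over the rest of the chromosome 0 of 40 (up to 8.81%) and 2 of 49 (4.08%, 0.498 to 14.0) reached it. At a q-value of at most 0.001 there were 1 and 3 peaks inside and 0 and 1 over the rest, where the whole libraries gave 7.55% and 7.26%. The q-value was 1 for 59 and 58 of the 81 peaks inside.

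Overlap between stages was more frequent inside the interval than elsewhere on the chromosome and close to that of the whole libraries. With a minimum overlap of 1 bp, 24 of 81 peaks of each stage overlapped a peak of the other (29.6%, 19.99 to 40.8), against 27.9% of all E8.5 and 22.8% of all E9.5 peaks. Over the rest of chromosome 4 the shares were 4 of 40 (10.0%, 2.79 to 23.7) and 4 of 49 (8.16%, 2.27 to 19.6). The interval of the rest overlaps that of the cluster at E8.5 and ends just below it at E9.5, and neighbouring peaks are not independent of each other. By window, the overlapping peaks numbered 4 of 13 and 4 of 15 in the first Mb, 4 of 21 and 4 of 24 in the middle Mb, and 16 of 47 (34.0%) and 16 of 42 (38.1%) in the last Mb. Among the other windows with over 40 peaks in both libraries, the counts were 40 of 77 and 39 of 65 (chromosome X, 31 to 32 Mb), 23 of 53 and 23 of 52 (chromosome 8, 20 to 21 Mb), 24 of 48 and 24 of 50 (chromosome 1, 85 to 86 Mb) and 28 of 41 and 32 of 62 (chromosome 14, 43 to 44 Mb).

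**Figure D4:**
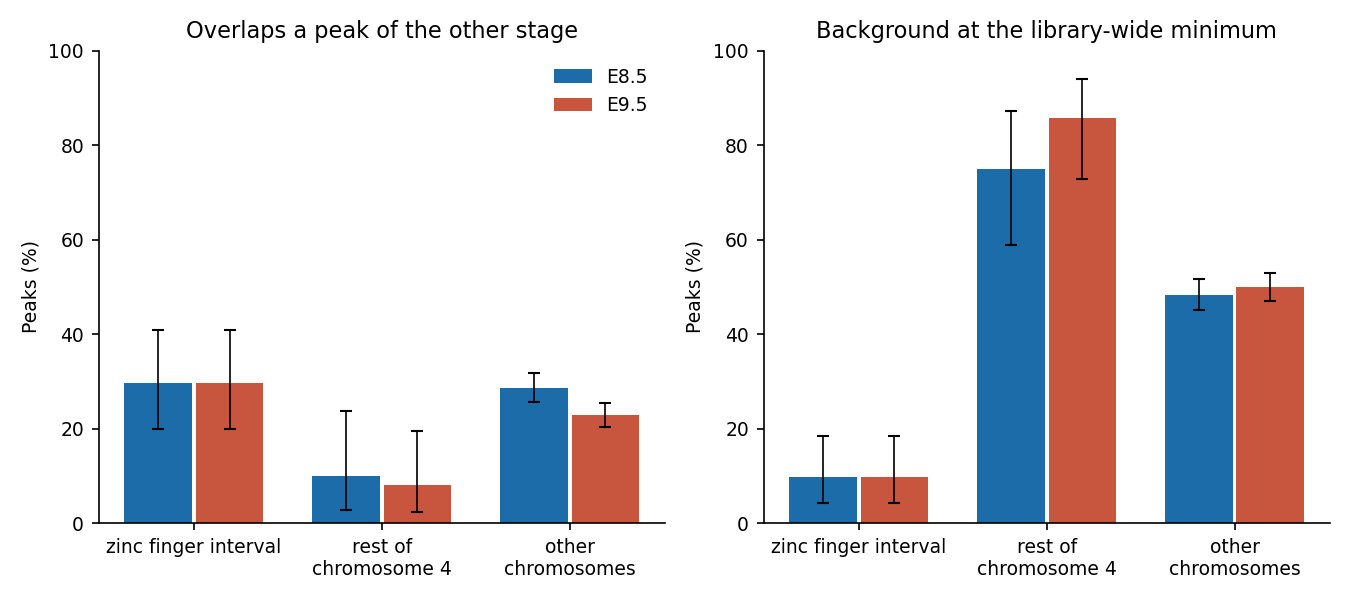
Share of peaks (%) that overlap a peak of the other stage (left) and share whose background is the lowest value of its library (right), for the zinc finger interval, the rest of chromosome 4 and all other chromosomes. Bars are shares of the E8.5 and E9.5 libraries and whiskers are exact 95% intervals, which cover counting error only. The shares with overlap stand at 29.6% inside and at 10.0% and 8.16% over the rest of the chromosome, and those at the lowest background at 9.88% inside and, at E9.5, at 85.7% over the rest.

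Inside the interval 57 peaks of each stage had no partner. The distance from these to the nearest peak of the other stage had a median of 6.06 kb for E8.5 peaks and 5.58 kb for E9.5 peaks. At each stage 39 of the 57 were within 10 kb. Over the rest of the chromosome the medians were 395.3 and 833.5 kb. Short distances are common wherever peaks are dense. This contrast was not separated from that of density, and it is no measure of agreement between stages. Peaks with a partner had higher pileups and backgrounds than peaks without. The median pileup with and without a partner was 19 and 14 in the E8.5 list and 18.5 and 13 in the E9.5 list, and the median background 6.67 and 4.51, then 7.45 and 4.16. The median fold was 2.70 and 2.35 at E8.5 but 2.51 and 2.51 at E9.5, so that the difference at E9.5 lay in height and background and not in fold.

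In each of the 24 overlapping pairs of the cluster the exact intervals of the 2 pileups overlapped. The E9.5 pileup was the higher in 12 pairs, the E8.5 pileup in 8 and they were equal in 4, and the fold was higher at E8.5 and at E9.5 in 12 pairs each. Summits of a pair lay a median of 106.5 bp apart (highest 378 bp), 16 of the 24 within 200 bp. In 22 pairs both backgrounds were above the library's lowest value.

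The pair with the highest mean rank of fold lay just past Zfp980, a gene of the cluster's proximal part. Its peaks were chr4:145706160-145706457 at E8.5, where 13 fragments were stacked (6.92 to 22.2) at a fold of 3.46, and chr4:145706127-145706512 at E9.5, where 19 were stacked (11.4 to 29.7) at a fold of 4.83. The 2 summits were 21 bp apart and lay 1804 and 1825 bp beyond the 3′ end of the gene, at or within 2 kb of the records of the lncRNA Gm26763 and of Vmn2r-ps15, a pseudogene of the vomeronasal receptor family. Both peaks had a background at the lowest value, and their q-values were 0.306 and 2.94e-05.

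A pair at a similar place lay past Zfp985. The E8.5 peak, chr4:147586825-147587144, stacked 19 fragments (11.4 to 29.7), with fold 4.76 and q-value 4.93e-05, and its summit lay 1751 bp beyond the 3′ end. The E9.5 peak, chr4:147586702-147587049, stacked 14 fragments (7.65 to 23.5), with fold 2.59 and q-value 1, 1532 bp beyond the end. At Zfp980 the higher value was thus that of E9.5 and at Zfp985 that of E8.5, with overlapping pileup intervals in both cases.

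The tallest pair lay inside Zfp600, at or within 2 kb of the lncRNA Gm13165 and the pseudogene Vmn2r-ps17. The peaks, chr4:146173803-146174080 and chr4:146173641-146174017, had pileups of 32 (21.9 to 45.2) and 36 (25.2 to 49.8), the highest of chromosome 4 in each library. Their folds were 2.83 and 3.13 over backgrounds of 10.7 and 10.8, with q-values of 0.00433 and 5.88e-05. A second pair in the same gene, chr4:146168358-146168867 and chr4:146168190-146168730, had pileups of 20 and 30 but folds of 1.83 and 2.01, over backgrounds of 10.4 and 14.4.

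Further pairs of high fold were spread along the cluster. The pair at Gm42346, a predicted gene at the proximal edge (chr4:145435964-145436567 and chr4:145435806-145436718), had pileups of 15 and 14 and folds of 3.81 and 3.20. In the overlapping records of Zfp978 and Zfp991 the pair at chr4:147172664-147173088 and chr4:147172466-147173052 had pileups of 16 and 16 and folds of 2.93 and 3.52. In Zfp978 alone the pair at chr4:147237056-147237320 and chr4:147236988-147237348 had pileups of 21 and 26 and folds of 2.78 and 3.25. These 3 pairs had q-values of at most 0.05 at 1 stage at most, E8.5 at Gm42346 and E9.5 at Zfp978.

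In the stretch with the most peaks the pair at the lncRNA Gm46898, chr4:147410339-147411002 and chr4:147410387-147410995, had pileups of 27 (17.8 to 39.3) and 32 (21.9 to 45.2) and folds of 2.64 and 3.37. The pair at its distal end, chr4:147438564-147438914 and chr4:147438444-147438939, lies in no annotated gene and had pileups of 30 and 29 and folds of 2.81 and 2.79. Of the 24 pairs, this pair and that of Zfp600 had a q-value of at most 0.05 at both stages, and 10 had it at either. By contrast, a pair of the same stretch at chr4:147428067-147428340 and chr4:147428003-147428382 had pileups of 24 and 31 and the lowest fold at E8.5, 1.62 and 1.88, over backgrounds of 14.4 and 15.98.

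Peaks without a partner reached similar folds. At E8.5 the highest were 3.95 (pileup 15) at chr4:147655333-147655643, outside annotated genes, and 3.73 (pileup 18) at chr4:147314213-147314586 in Zfp988. At E9.5 the highest was 4.11 (pileup 16, q-value 0.00463) at chr4:147787546-147788267 in Zfp984. Next came 3.79 (pileup 15) at chr4:146972729-146973143 near the start of the Rex2 record, and 3.47 (pileup 22, q-value 0.00377) at chr4:146470533-146470858 beside Zfp992. The absence of a called partner is not an absence of signal: coverage outside called peaks was not analysed here.

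Most zinc finger genes of the interval held a peak. With gene bodies extended by 2 kb on each side, 13 of the 17 held a peak at E8.5, 12 at E9.5, 11 both and 14 either, and 7 held an overlapping pair. Over all 21775 protein-coding genes the shares were 0.969% and 1.20%. The interval had been named with the peak lists in view and is dense in peaks. An excess of its genes over those shares therefore follows from its choice and is a description. Zfp980, Zfp600, Zfp992, Zfp993, Rex2, Zfp978, Zfp991, Zfp982, Zfp985, Zfp979 and Zfp984 held peaks of both stages, Zfp981 and Zfp988 of E8.5 and Zfp534 of E9.5. Zfp990, Zfp987 and Zfp933 held none. Zfp978 led with 24 and 15 peaks, but its record of 267146 bp, like that of Zfp993 (478623 bp, 6 and 9 peaks), runs over other genes of the cluster, so the counts of neighbouring genes are not independent.

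Summits were spread over and between these genes. Zinc finger gene bodies held 47 of 81 E8.5 summits (58.0%, 46.5 to 68.9) and 41 of 81 E9.5 summits (50.6%, 39.3 to 61.9), and they cover 40.9% of the interval. For annotated genes and pseudogenes of every kind the shares were 70.4% and 71.6%, with 65.2% of the interval covered. The strand was known for 13 of the 17 genes, and starts and ends here are those of the gene records. Counted per stage, E8.5 first, 2 and 3 of the 13 had a peak in the 5 kb before the start, and 3 and 0 in the last 5 kb of the gene. Within 5 kb beyond the 3′ end, 4 of them had an E8.5 peak (Zfp980, Zfp988, Zfp982 and Zfp985) and 3 an E9.5 peak (Zfp980, Zfp988 and Zfp985), and each of the last 3 had an overlapping pair there. At Zfp988 that pair, chr4:147337880-147338169 and chr4:147337710-147338079, was tall, with pileups of 29 and 33, but had folds of 2.306 and 2.101 over backgrounds of 12.0 and 15.2. In the first 5 kb of the gene 6 of the 13 had an E8.5 peak and 1, Zfp979, an E9.5 peak. These counts by place are small, and they come from an interval dense in peaks. They were set against no expected count, so no preference for a place can be read from them.

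**Figure D5:**
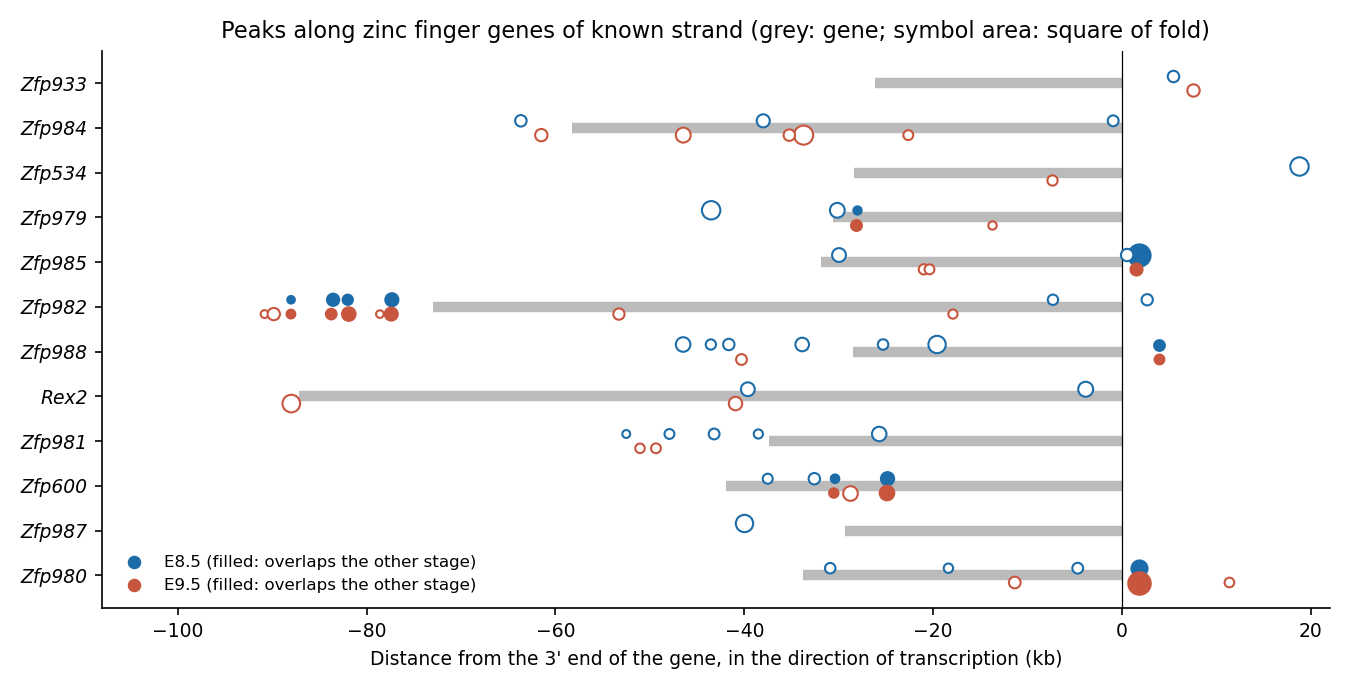
Summits along 12 of the 13 zinc finger genes of known strand, as distance from the 3′ end in the direction of transcription (kb). Grey bars are gene bodies, circles are E8.5 (blue) and E9.5 (red) peaks, filled where they overlap the other stage, with an area that grows with the square of the fold, and Zfp993 is left out for the length of its record. The filled circles just right of 0 at Zfp980, Zfp985 and Zfp988 are the pairs beyond the 3′ end, and 6 of the 13 genes have an E8.5 peak in their first 5 kb.

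Counts for genes of other kinds within the interval varied. Both predicted protein-coding genes, Gm42346 and Gm13212, held peaks of both stages. None of the 9 other named protein-coding genes held a peak of either stage. These lie mostly at its edges and include Fv1, a retroviral restriction gene of retroviral origin, Mfn2, which encodes mitofusin of the outer mitochondrial membrane, Nppb, which encodes a natriuretic peptide, and the tumour necrosis factor receptor genes Tnfrsf1b and Tnfrsf8. Other records are scattered over and between the zinc finger genes. Of these, 3 and 4 of 6 Vmn2r pseudogenes, 9 and 6 of 50 other pseudogenes and 5 and 4 of 8 lncRNAs held peaks, E8.5 count first. Over the whole genome the shares were 0.685% and 0.657% of pseudogenes and 0.498% and 0.673% of lncRNA genes. Znf41-ps, a zinc finger pseudogene, was among the other pseudogenes. The counts of pseudogenes and lncRNAs thus also lay above the shares of their kind, which follows from the choice of an interval dense in peaks. Many of these records overlap a zinc finger gene and hold the same peaks, so their counts are not independent of those genes. The lncRNAs Gm26763, Gm30681 and Gm21411, for example, held only peaks also counted for Zfp980 or Zfp993. Differences between kinds were not tested, and 0 of 9 is near what the share of all protein-coding genes gives.

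The 11 zinc finger genes of chromosome 4 outside the interval held no peak at either stage, where the shares of all protein-coding genes were 0.969% and 1.20%. On other chromosomes 2 of 367 Zfp genes (0.545%) held a peak in the E8.5 list and 3 (0.817%) in the E9.5 list, near those shares. Of the 24 windows of 1 Mb there with at least 4 Zfp genes, 19 had no E8.5 peak and 13 no E9.5 peak. Of all 2667 windows with a gene, 2239 (84.0%) had no E8.5 peak and 2110 (79.1%) no E9.5 peak. Windows with at least 4 Zfp genes were thus less often empty than all windows, slightly at E8.5 and more clearly at E9.5. This difference was not tested. The window richest in Zfp genes, chromosome 13 from 67 to 68 Mb with 23 of them, had 0 peaks in both libraries, and the most peaks were 9 and 10, on chromosome 8 from 71 to 72 Mb. On chromosome 4 the last and the middle Mb of the interval, with 10 and 5 Zfp genes, had 47 and 42 and 21 and 24 peaks.

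In the other tandem families of chromosome 4 the counts of members with a peak at either stage were between 0 and 4. Counts per stage are to be read against the 0.969% and 1.20% of all protein-coding genes. The families were taken by symbol, so they can include records of other kinds. The major urinary protein (Mup) genes encode lipocalins that carry pheromones. Of 44 Mup records, 2 held a peak at each stage, a small count above those shares, with 0 in common: Mup-ps12 and Mup-ps16 at E8.5, Mup19 and Mup5 at E9.5. The window from 61 to 62 Mb that holds them had 8 peaks at each stage, of which 0 of 8 overlapped (up to 36.9%), and 7 of the 8 had the lowest background, with pileups of 10 to 12 and 9 to 12. Its density was lower than in any window of the zinc finger cluster, and its peaks were as low as those of the rest of the chromosome. None of its peaks at either stage had a q-value of at most 0.05. Among promoter windows, 37 of 38 from 17 Mup genes, many of them shifted windows of the same gene, shared a run of 25 bases with another gene. The median adenine content of the 38 windows was 36.8%, again on the given strand alone. The Skint genes, which encode butyrophilin-like proteins, had 1 of 11 members with a peak at each stage, Skint5 at E8.5 and Skint8 at E9.5. Of 4 Vmn1r genes 1, Vmn1r3, had an E8.5 peak. These Skint and Vmn1r counts also lay above those shares, but each rests on 1 record. No member of the type I interferon (20 genes), Cyp4 (15), Cyp2j (10), Pramel, Pramef and Oog (28), Olfr (30), Ccl and Il11ra (10), Fam205 and Spata31 (5), Orm (3), Padi (5), Tas1r (3) or Aadacl (6) families had one, which at these sizes is near what the share of all genes gives.

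Of the 2053 promoter windows of chromosome 4, a peak overlapped a window of Mup-ps16 alone, and it is shown for that reason. The window lies inside the gene record, chr4:61783062-61801230, and not at its beginning. No peak overlapped the other windows of that gene. The window is chr4:61796164-61796463 on the plus strand, and capitals mark the 222 bases that lie inside the E8.5 peak chr4:61795803-61796385. The pileup of that peak was 11 (5.49 to 19.7) and its fold 2.96, and it did not reach a q-value of at most 0.05.
Mup-ps16: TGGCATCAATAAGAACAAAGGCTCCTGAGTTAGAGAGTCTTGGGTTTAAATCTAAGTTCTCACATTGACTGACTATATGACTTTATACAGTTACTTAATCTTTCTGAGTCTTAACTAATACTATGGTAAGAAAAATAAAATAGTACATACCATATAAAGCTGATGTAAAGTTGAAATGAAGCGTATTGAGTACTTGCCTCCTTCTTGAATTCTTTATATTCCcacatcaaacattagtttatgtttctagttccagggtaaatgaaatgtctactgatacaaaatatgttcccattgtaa

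In the zinc finger interval the nearest approaches were at E8.5, 279 bp from the windows of Zfp979 and Zfp993 and 327 bp from that of Rex2 shown above. The Rex2 window lies inside the gene record, and the summit of that peak lay 47567 bp past the start of the record. The pair at Gm46898 lay 470 and 477 bp from the window of that gene. Over the whole of chromosome 4, 6 windows at E8.5 and 1 at E9.5 lay within 1 kb of a peak.

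Outside the cluster the chromosome 4 peaks were scattered. Of 1273 protein-coding genes in that part, 12 held one of the E8.5 peaks and 15 one of the E9.5 peaks, with 2 in common. These counts are near what the shares of all protein-coding genes, 0.969% and 1.20%, give. Unc13b, which encodes a synaptic vesicle priming factor, held the overlapping pair chr4:43079845-43080323 and chr4:43079538-43080012, with pileups of 12 and 12 and folds of 3.21 and 3.14. Nfia, which encodes a transcription factor of glial development, held peaks of both stages that did not overlap, with folds of 2.71 and 2.41. Genes with a peak at 1 stage included Gabbr2, a GABA receptor subunit with 2 E8.5 peaks, and the receptor gene Tgfbr1 at E8.5. Ptprd, Tek, Tox and Camta1 had a peak at E9.5, and the folds at these genes were 2.17 to 2.90. No peak at a gene named in this paragraph had a q-value of at most 0.05, and the Unc13b summits lay 359 bp apart. Apart from Unc13b these genes fall outside the naming rule given below and are examples from 25 genes with a peak. Several have long records, up to 2270506 bp for Ptprd.

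The other 3 overlapping pairs of the rest of the chromosome lay near its start. They were at chr4:3224041-3224296 and chr4:3224048-3224758 (pileups 12 and 21, folds 2.24 and 2.98), at chr4:3234911-3235558 and chr4:3234748-3235730 at the lncRNA Gm46840 (pileups 10 and 17, folds 2.199 and 2.197), and at chr4:5005500-5005817 and chr4:5005419-5005877 (pileups 11 and 13, folds 2.40 and 3.38). The highest folds without a partner were both at E9.5, 4.59 at chr4:10136951-10137704 (pileup 18, q-value 0.000172), in no annotated gene, and 3.86 at chr4:15915756-15916098 (pileup 15, q-value 0.0211) beside Decr1, which encodes a mitochondrial reductase of fatty acid oxidation. They were the peaks of the rest of the chromosome with a q-value of at most 0.05, and in pileup both fell below the tallest pairs of the zinc finger cluster.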

How the data were processed

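What was measured was the enrichment of 6mA in sonicated brain DNA, in 1 library at E8.5 and 1 at E9.5, grouped by title. Per the submitters' processing notes, cutadapt 1.9.2, Bowtie2 2.2.4 and mm10 were used. Per the file headers, MACS 2.1.1.20160309 called peaks for each library in paired-end mode at a p-value of 0.01 (genome size 1.27e+09, local backgrounds over 1000 and 10000 bp, at most 2 duplicates kept), and 15375941 E8.5, 15349825 E9.5 and 9603633 input fragments entered. The library names in the headers carry no stage, so the stages rest on the sample labels. The deposited pileup is a signal in fragments, and the deposited fold is a ratio. The deposited p-values and q-values are −log10 values, although the headers say that q-values were not calculated. The headers say that the larger data set was scaled to the smaller, yet all deposited pileups are whole numbers, so the larger immunoprecipitated libraries were not scaled down.

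Computed here with python 3.11.15, numpy 2.4.6, pandas 2.3.3 and scipy 1.17.1 were overlaps (at least 1 bp), gaps between summits, backgrounds (pileup + 1 over fold, minus 1, at the lowest value within 0.005), exact Clopper-Pearson and Poisson intervals at 95%, and gene counts (body extended by 2 kb). The code that counts overlaps and gaps was tested on simulated data with planted overlaps, which checks the counting alone; the overlap between stages was set against no simulation. PCR copies are not independent molecules. The members and lists were chosen with earlier results of these data known. Named were the 8 highest-ranked overlapping pairs inside and up to 8 outside, the 5 peaks without partner of highest fold in each area and library, peaks with a q-value of at most 0.001 and genes within 2 kb; other pairs in the text were chosen after their values were seen. The zinc finger interval ran from 145 to 148 Mb. The gene table gives no descriptions, so zinc finger genes were taken by symbol (Zfp, and Rex2), and 398 of its 49997 records, with coordinates under 3 Mb, were not used. Protein and peak sequences were not used here.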

Additional observations from a re-analysis of the deposited data

How the results depend on the processing

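In all, 26 values were recomputed under 11 settings, and 90 of 110 recomputed values stayed within the interval of the value reported, or within 1.5 times of it for counts. Many of these 90 could not have moved. Widening the interval on both sides added no peak. Leaving out the highest pileups of each library removed no peak of chromosome 4. Leaving out the last Mb of the interval could not change a value of the rest of the chromosome. The count of 90 therefore overstates how far the values were tested. The 20 values that did move came from 3 settings. Limiting both lists to a q-value of at most 0.05 left 10 and 11 peaks inside the interval and 0 and 2 over the rest. Inside it then gave median pileups of 20 and 26, a median length of 362.5 bp at E8.5, median folds of 3.53 and 3.25 and an overlap of 18.2% at E9.5 (2.28 to 51.8), with 5 and 7 zinc finger genes holding a peak. Over the rest of the chromosome at E9.5 it gave a pileup of 16.5, a length of 548.5 bp, a fold of 4.23 and an overlap of 0%, from 2 peaks, and at E8.5 no value. With the peaks at the lowest background alone, the median fold inside was 2.96 and 2.66, against 2.71 and 2.66 over the rest, so its order turned at E8.5 and vanished at E9.5. With the last Mb of the interval left out, 34 and 39 peaks remained inside. Fewer peaks enter each of these settings by construction, and no further cause was tested. No paired analysis was possible because each stage has 1 library and no value comes from a test. Pileups of 8 to 36 fragments limit the precision of every peak, and no replicate check could be made.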

Other observations

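Away from chromosome 4, the 24 windows of 1 Mb with at least 4 Zfp genes together held 169 such genes and 19 E8.5 and 34 E9.5 peaks. Of these, 9 and 10 peaks lay on chromosome 8 from 71 to 72 Mb, where 5 of 10 at E9.5 had a partner at E8.5 and the median E9.5 pileup and background were 20.5 and 7.80. Another 6 and 9 lay on chromosome 6 from 47 to 48 Mb, with 5 Zfp genes. The window on chromosome 7 from 127 to 128 Mb had as many Zfp genes as the last Mb of the chromosome 4 interval, 10, and no peak in either library. These values are a description, and the windows were set beside each other after their counts had been seen.

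The predicted and non-coding records near the start of the assembled chromosome 4 formed a small group of peaks of their own. Between chr4:3224041 and 3254861, around the lncRNA Gm46840, there were 5 E8.5 peaks with pileups of 10 to 15 and 2 E9.5 peaks with pileups of 21 and 17, and both of the latter had a partner. The background at both E9.5 peaks, 6.39 and 7.19, was above the lowest value of the library.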
